A study of Bos taurus with 8 samples.

Results

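Muscle of Hereford and Holstein-Friesian bulls was compared through the Limousin bulls that shared arrays with both. For each of 4 Limousin bulls, the log2 ratio of Hereford over Limousin on the array of that number had subtracted from it the log2 ratio of Holstein-Friesian over Limousin on the other array of the same number. All 8 of 8 arrays entered, as 4 pairs, and 6693 genes with a symbol could be read. Samples came from semitendinosus, a hind limb muscle used in locomotion, of 12 bulls aged 15 months, 4 of each breed. The labels name 12 separate animals, with the same Limousin bull on both arrays of a number. They give no treatment, diet or herd. The series text calls the meat of Hereford and Holstein-Friesian well marbled and that of Limousin lean. Total RNA was extracted with Trizol per the labels. Of 14 skeletal muscle marker genes, 11 had a kept probe, and all 11 were well above background in all 16 channel readings.

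Hereford is a beef breed, Holstein-Friesian a dairy breed and Limousin a heavily muscled beef breed. Muscle tissue holds fibres, connective tissue, vessels, fat cells and resident immune cells, and RNA of the whole tissue mixes them. Complement is a cascade of secreted proteins that tag particles for removal, and part of it is made by macrophages and fat cells. Immediate early genes are transcribed within minutes of a stimulus and encode mostly transcription factors. In bulk tissue, fewer cells of a type and less RNA per cell cannot be told apart.

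The 2 slides were labelled in opposite ways. Hereford was always in Cy5 beside Limousin in Cy3, and Holstein-Friesian always in Cy3 beside Limousin in Cy5. A dye preference of a probe therefore enters the difference 2 times with the same sign. A second reading set each breed against Limousin in its own dye on the other slide, so that dye cancels and a slide effect enters 2 times instead. These are called the difference across dyes and the difference in the same dye. Both rest on the same Hereford and Holstein-Friesian channels, so the second is no independent repeat. Dye and slide together cannot be told apart from breed, and median net signal was 97 to 139 intensity units in Hereford and 30.5 to 46.5 in Holstein-Friesian. Limousin, read in both dyes, showed what dye and slide do without a breed difference. Its Cy5 minus Cy3 value had an SD over probes of 0.16 log2. The difference across dyes equals the same-dye difference plus 2 times this value, which has an SD of 0.32 log2, against 0.37 for the difference across dyes itself. In the Limousin reading 749 of 17061 probes (4.39%) passed the test. Pair 1 stood apart. Over probes, the Limousin Cy5 minus Cy3 values of bulls 2 to 4 correlated with each other at 0.692 to 0.762, and those of bull 1 with the others at -0.133 to 0.205. Without pair 1, 5713 probes passed in that Limousin reading. These correlations are across probes, which are not independent replicates.

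Across dyes, 701 of 17061 probes (4.11%) passed in limma at an adjusted p under 0.05, 353 higher (2.07%) and 348 lower (2.04%) in Hereford. Called differences ran from 0.41 to 3.05 log2 in size, with a median of 0.80. Among genes with a symbol, 321 of 6693 passed (4.8%), with 141 higher and 180 lower. In the same dye 305 probes passed (1.79%), 139 of which had also passed across dyes, each in the same direction. Of the 701, 660 had the same sign in the same dye and 41 the opposite sign. By the same-dye reading 51 named genes were higher (0.762%) and 91 lower (1.36%), and 20 higher and 51 lower genes passed by both readings. Without the pairing, 458 probes passed (2.68%). Without pair 1, 281 probes passed and 182 of these were among the 701. Without any other pair 0 passed in limma, with 3318 to 3487 at an unadjusted p under 0.05, so the calls need these pairs. Of the 49 genes named below that passed, 23 kept their call without pair 1. Centring each array on its median in place of loess moved the median of all probes to 0.36 log2 and made 94.5% of 4043 calls higher, against 50.4% of calls after loess. Values after loess are given from here on, and a gene that passed is named where its direction differs after median centring. Medians of 14 of 33 gene lists also changed sign there. Antigen presentation, blood cell, endothelium, nerve, smooth muscle, calcium handling, fatty acid oxidation, insulin signalling, myogenesis, proteolysis, ribosomal protein, sterol synthesis and citrate cycle medians went from below 0 to above 0, and the lymphocyte marker median from above to below.

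**Figure D1:**
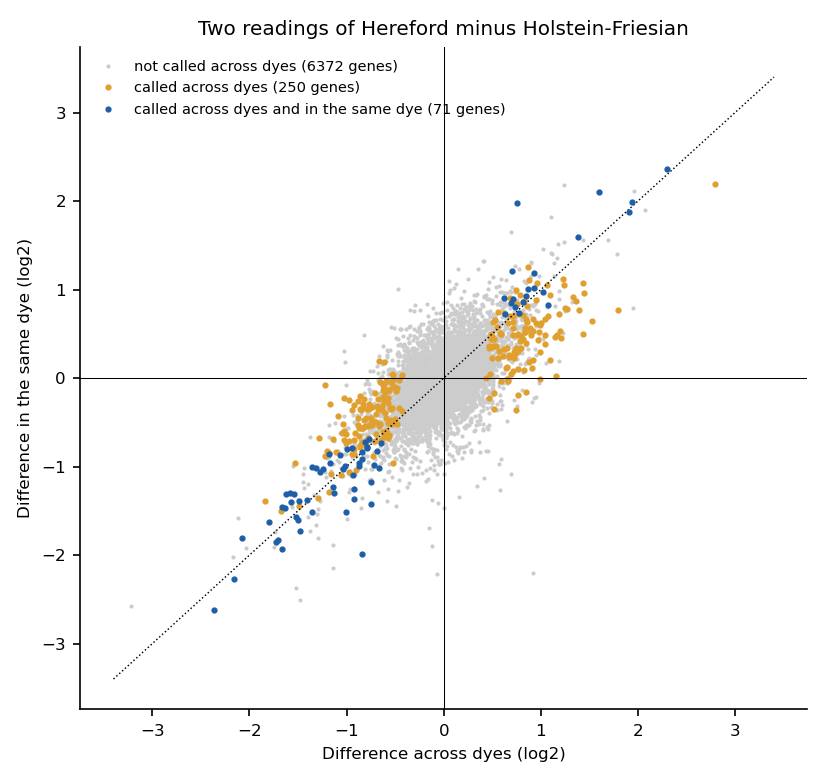
Difference across dyes (x axis, log2) against difference in the same dye (y axis, log2) for 6693 genes, each point the mean of 4 pairs, with a dotted line of equality. The 71 genes that passed in both readings (blue) lie along the line, and many of the 250 that passed only across dyes (orange) lie nearer to 0 on the y axis.

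The genes described first passed across dyes and had the same sign in all 4 pairs of both readings. In total, 105 genes higher and 140 lower in Hereford met this, and the 12 with the largest values in each direction were taken, of which 23 of 24 are reported. The sign was part of that choice. Among all named genes, 17.5% were higher and 18.9% lower in Hereford in all 4 pairs across dyes, and breed ranges did not overlap in 6.78% with Hereford higher and 6.9% with Hereford lower. Each value is the log2 ratio of the breed to Limousin on arrays 1 to 4, in that order, unless called a difference.

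COL3A1 encodes the chain of type III collagen, a fibre of the connective tissue around muscle fibres. COL3A1 stood at 0.53, -0.61, -0.69 and -0.14 in Hereford and at -1.75, -2.00, -4.23 and -2.14 in Holstein-Friesian. All Hereford arrays lay above all Holstein-Friesian arrays, and Holstein-Friesian lay below Limousin on each. The COL3A1 difference was 2.30 (SD 0.91, n = 4 pairs, limma adjusted p = 0.0409), and 2.36 in the same dye (limma adjusted p = 0.043). METTL21E, a methyltransferase gene of skeletal muscle, had the largest difference across dyes of any named gene that passed. METTL21E stood at 2.29, -0.35, -0.22 and 1.35 in Hereford and at -1.47, -2.18, -2.85 and -1.60 in Holstein-Friesian. The breeds did not overlap, although Hereford spread on both sides of Limousin. The METTL21E difference was 2.79 (SD 0.80, n = 4 pairs, limma adjusted p = 0.0305), and its same-dye value of 2.19 did not pass (limma adjusted p = 0.0985).

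INHA encodes the alpha subunit of inhibin, a hormone of the TGF-beta family. INHA stood at 2.41, 1.50, 2.53 and 1.15 in Hereford and at 0.19, 0.023, -0.35 and -0.029 in Holstein-Friesian. Holstein-Friesian stayed near Limousin and every Hereford array stood above it. For INHA the difference was 1.94 (SD 0.77, n = 4 pairs, limma adjusted p = 0.0413), and 1.99 in the same dye (limma adjusted p = 0.0486). ASIP encodes agouti signalling protein, a secreted antagonist of the melanocortin receptor best known for coat colour. ASIP stood at 1.62, 1.09, 1.53 and 1.80 in Hereford and at 0.10, 0.20, 0.11 and 0.10 in Holstein-Friesian. Its probe was well above background in all 4 Hereford readings and not well above background in any Holstein-Friesian or Limousin reading. On single channel values after loess and Aquantile, Hereford was at least 2.80-fold higher than Holstein-Friesian, with the dim side set on each array at the higher of its own signal and the lowest signal well above background. The fitted difference, taken through Limousin readings that are not well above background either, was somewhat smaller than this, on the log2 scale 1.38 (SD 0.35, n = 4 pairs, limma adjusted p = 0.0304), so the bound depends on the scale and is open to dye bias. The ASIP probe passed the filter on dim probes through Hereford alone, so its place among the genes that passed supports nothing further.

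EXTL1, an exostosin-like glycosyltransferase of heparan sulfate synthesis, lay above Limousin in Hereford and below it in Holstein-Friesian. EXTL1 stood at 1.77, 0.055, 1.38 and 1.34 in Hereford and at -0.0084, -0.72, -0.73 and -0.40 in Holstein-Friesian. Array 2 was the lowest in Hereford, near Limousin. Its difference was 1.60 (SD 0.57, n = 4 pairs, limma adjusted p = 0.0383), and 2.10 in the same dye (limma adjusted p = 0.0377). Limousin itself read -0.25 between dyes (limma adjusted p = 0.0476).

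KCTD15, a BTB domain protein, had differences of 1.49, 2.24, 2.29 and 1.60 in pairs 1 to 4, all above 0 and within a narrower range than those of COL3A1. Its mean was 1.90 (SD 0.42, n = 4 pairs, limma adjusted p = 0.0251). GPX4, which reduces lipid hydroperoxides in membranes, differed by 1.55, 1.68, 1.22 and 0.46 in the 4 pairs (mean 1.23, SD 0.55). MEST, an imprinted gene of the hydrolase family, differed by 1.49, 0.58, 1.32 and 0.88 (mean 1.07, SD 0.42). DDC, the decarboxylase that makes dopamine and serotonin, had a mean of 1.02 (SD 0.25), and its breed ranges overlapped because Hereford array 3 lay just below Holstein-Friesian array 1. NDUFC1, a subunit of respiratory complex I, had a mean of 0.97 (SD 0.35). Across dyes each of GPX4, MEST, DDC and NDUFC1 rose, with limma adjusted p-values of 0.0494, 0.0443, 0.0311 and 0.042. With HSPH1 described below, these genes higher in Hereford were 11 in all. Of them COL3A1, INHA, KCTD15, EXTL1, ASIP and DDC passed in the same dye as well, and the other 5 did not. For ASIP that pass supports nothing further either, since its probe passed the filter through Hereford alone.

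**Figure D2:**
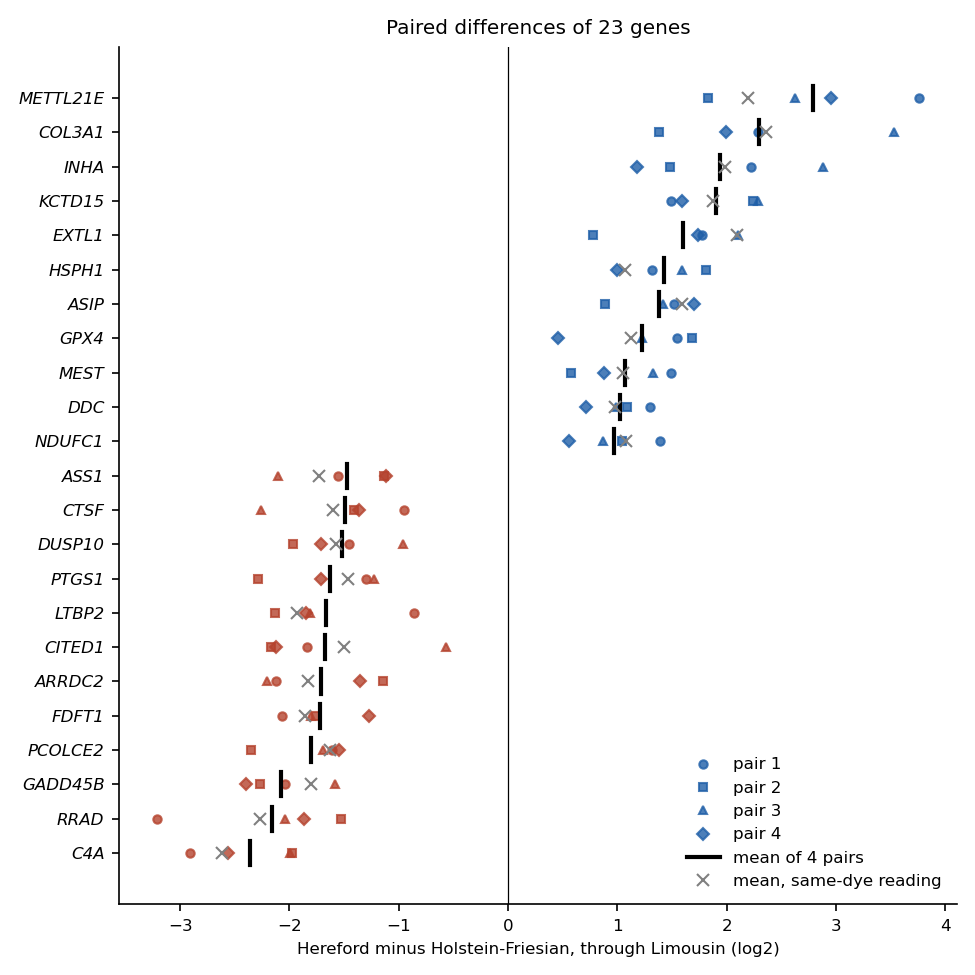
Difference Hereford minus Holstein-Friesian (x axis, log2) in pairs 1 to 4 (symbols) for 11 genes higher and 12 lower in Hereford that met the naming rule, with the mean of 4 pairs (bar) and the same-dye mean (cross). METTL21E has the highest mean, 2.79, and C4A the lowest, -2.36, and no pair of any of the 23 genes crosses 0.

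Genes lower in Hereford by the same rule numbered 12. Of these GADD45B binds kinases of the p38 and JNK cascade. GADD45B stood at -0.60, -0.23, -0.053 and -0.90 in Hereford and at 1.44, 2.04, 1.53 and 1.50 in Holstein-Friesian. Every Hereford array lay below Limousin and every Holstein-Friesian array above it. GADD45B fell, with a difference of -2.08 (SD 0.36, n = 4 pairs, limma adjusted p = 0.0226), and -1.80 in the same dye (limma adjusted p = 0.0335). DUSP10, a phosphatase that switches off p38 and JNK, differed by -1.45, -1.97, -0.96 and -1.71 in the 4 pairs, with a mean of -1.52 (SD 0.43, n = 4 pairs, limma adjusted p = 0.0312). RRAD is a small GTPase that restrains calcium channels. RRAD stood at -0.29, 0.59, -0.65 and -0.12 in Hereford and at 2.92, 2.11, 1.39 and 1.75 in Holstein-Friesian. Hereford scattered around Limousin while Holstein-Friesian was higher on all 4 arrays. The RRAD difference was -2.16 (SD 0.73, n = 4 pairs, limma adjusted p = 0.0341), and -2.27 in the same dye (limma adjusted p = 0.0377). ARRDC2, an arrestin family gene, and CITED1, a transcriptional co-regulator, had mean differences of -1.71 (SD 0.54) and -1.67 (SD 0.75), both with breed ranges that did not overlap.

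Also lower were FDFT1, ASS1 and PTGS1, single enzymes of separate pathways. FDFT1 is squalene synthase, the step that commits isoprenoids to cholesterol. FDFT1 stood at -2.23, -1.26, -1.00 and -0.44 in Hereford and at -0.16, 0.49, 0.81 and 0.83 in Holstein-Friesian. Hereford lay below Limousin on all 4 arrays and Holstein-Friesian on array 1 only. FDFT1 fell by 1.72 on the log2 scale (SD 0.33, n = 4 pairs, limma adjusted p = 0.0235), and the same-dye value was -1.86. Of 16 measured sterol synthesis genes, FDFT1 was the 1 that passed across dyes (4.8% of named genes did), and the list median was -0.039. SQLE, the next enzyme, stood at a difference of -0.72 (SD 0.30, n = 4 pairs, limma adjusted p = 0.051), which did not pass. ASS1, argininosuccinate synthase, differed by -1.56, -1.13, -2.11 and -1.11 in the 4 pairs (mean -1.48, SD 0.47, limma adjusted p = 0.0341). PTGS1 is cyclooxygenase 1, which starts prostaglandin synthesis. PTGS1 stood at -0.62, -0.62, -0.15 and -0.62 in Hereford and at 0.69, 1.66, 1.08 and 1.09 in Holstein-Friesian. Each Hereford array lay below Limousin and each Holstein-Friesian array above. The PTGS1 difference was -1.63 (SD 0.49, n = 4 pairs, limma adjusted p = 0.0323).

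PCOLCE2, CTSF and LTBP2 were lower as well. PCOLCE2 enhances the enzyme that trims procollagen. PCOLCE2 stood at -1.12, -0.91, -0.45 and -0.44 in Hereford and at 0.50, 1.44, 1.25 and 1.11 in Holstein-Friesian. The breeds lay on opposite sides of Limousin, with a difference of -1.80 (SD 0.37, n = 4 pairs, limma adjusted p = 0.0251) and -1.62 in the same dye (limma adjusted p = 0.0335). CTSF, a cysteine protease of the lysosome, had -0.31, -0.31, -0.29 and -0.50 in Hereford and 0.64, 1.09, 1.97 and 0.86 in Holstein-Friesian. Hereford arrays clustered just below Limousin and array 3 was the highest in Holstein-Friesian, and the CTSF difference was -1.50 (SD 0.55, n = 4 pairs, limma adjusted p = 0.0399). LTBP2, a matrix protein related to the binders of latent TGF-beta, differed by -0.86, -2.13, -1.81 and -1.85 in the 4 pairs, with a mean of -1.66 (SD 0.55, n = 4 pairs, limma adjusted p = 0.0341). GADD45B, RRAD, FDFT1, ARRDC2, LTBP2, PCOLCE2, DUSP10, CTSF, ASS1 and PTGS1 also passed in the same dye, and CITED1 did not (limma adjusted p = 0.0585).

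Complement genes lay lower in Hereford than in Holstein-Friesian. Of 18 listed, 10 were measured, all 10 had a mean below 0 across dyes (50.8% of all named genes did), 3 fell and none rose (2.69% and 2.11% of named genes). The list median was -1.29 across dyes and -1.05 in the same dye, against -0.0044 and -0.027 over all named genes. By pair, the complement median was -0.26, -1.19, -1.36 and -1.88, so pair 1 showed it least. After median centring it was -0.71, which is -1.07 from the all-probe median, and 8 of 10 members stayed below 0.

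C4A, complement component 4, belongs to the classical and lectin pathways. C4A stood at -1.54, -1.70, -0.45 and -1.21 in Hereford and at 1.37, 0.27, 1.55 and 1.34 in Holstein-Friesian. Hereford was below Limousin on all 4 arrays and Holstein-Friesian above it on all 4. C4A fell by 2.36 on the log2 scale (SD 0.46, n = 4 pairs, limma adjusted p = 0.0226), with -2.62 in the same dye (limma adjusted p = 0.0351) and 0.13 in the Limousin dye reading. Genes for C4 occur as near-identical copies in mammals, which a probe may not separate. Factors B and D of the alternative pathway also fell. CFB stood at -0.62, -0.17, 0.35 and -1.02 in Hereford and at 0.95, 1.02, 2.06 and 1.89 in Holstein-Friesian, without overlap. CFD, the serine protease also known as adipsin of fat cells, stood at -0.63, -0.67, 0.13 and -0.46 and 0.59, 0.89, 1.59 and 1.64, again without overlap. Mean differences were -1.84 (SD 0.74, n = 4 pairs, limma adjusted p = 0.0426) for CFB and -1.58 (SD 0.37, n = 4 pairs, limma adjusted p = 0.0292) for CFD. In the same dye CFD passed at -1.30 (limma adjusted p = 0.039), and CFB at -1.39 did not (limma adjusted p = 0.0629).

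C3, on which all pathways converge, had a difference of -1.52 across dyes and -2.37 in the same dye, and passed in neither (limma adjusted p = 0.0598 and 0.0636). SERPING1, the inhibitor of C1, stood at -1.05 without passing, and passed in the same dye at -1.09 (limma adjusted p = 0.0477). C1QA, a chain of C1q, stood at -1.56 and did not pass. The remaining members CFI, CD55, C2 and C7 lay between -0.22 and -0.056. Without pair 1, 4 complement genes fell and the median was -1.55. Without pair 2, 3 or 4 none passed in limma, as for all probes, and the medians were -1.17, -1.26 and -0.99.

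Markers of macrophages lay on the same side. All 7 measured of 14 listed had a mean below 0 (50.8% of all named genes did), with a list median of -0.75 across dyes and -0.46 in the same dye, and none passed in limma in either reading. C1QA is in both lists. CD14, a receptor for bacterial lipopolysaccharide, stood at -0.42, -0.24, -0.046 and -0.34 in Hereford and at 0.15, 0.41, 0.46 and 0.94 in Holstein-Friesian. Its arrays did not overlap, and its difference of -0.75 (SD 0.36, n = 4 pairs, limma adjusted p = 0.0573) did not pass. CD68, a lysosomal protein of macrophages, had -0.51 across dyes but 0.022 in the same dye. The other members, AIF1, LYZ, FCER1G and MSR1, lay between -0.90 and -0.35. The median over the list was -0.54 to 0.011 on the Hereford arrays and -0.13 to 0.89 on the Holstein-Friesian arrays. All 7 were well above background in every reading. Their part in the complement difference was not tested.

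**Figure D3:**
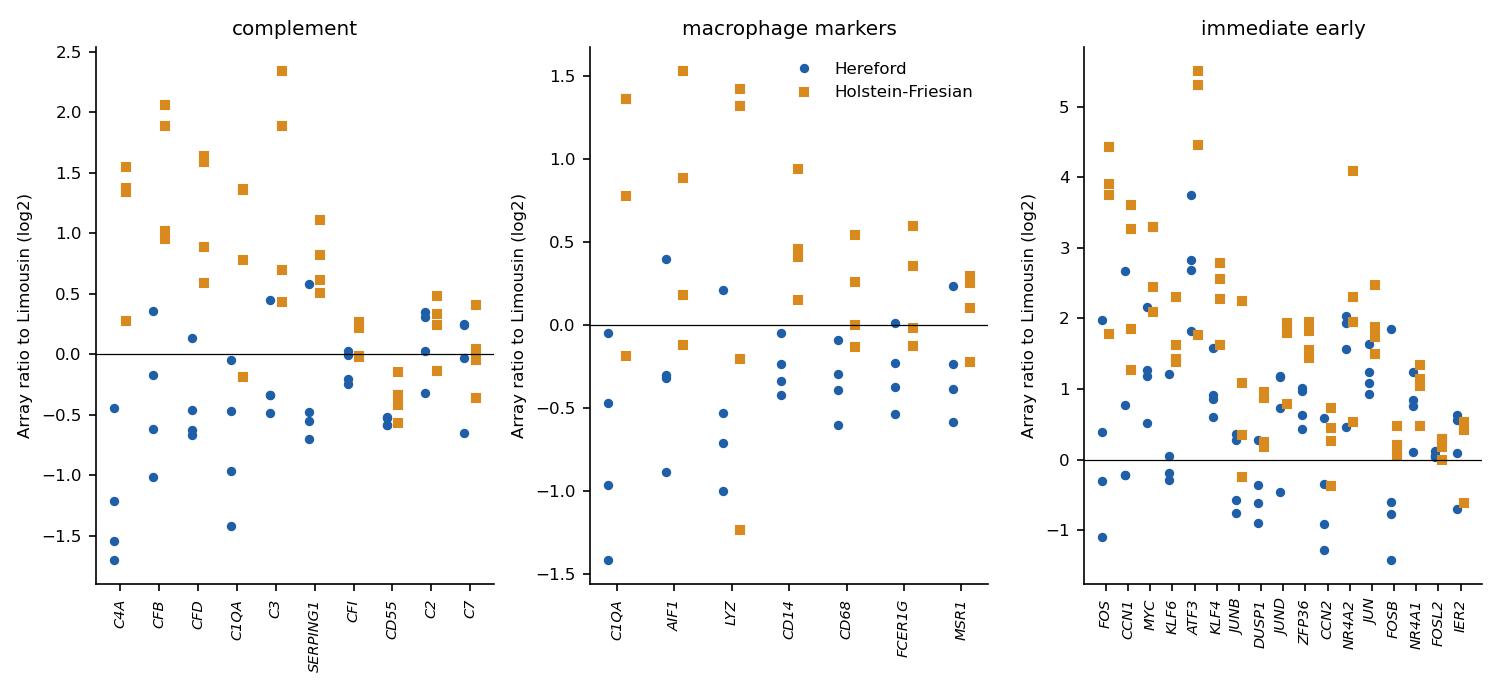
Array log2 ratio to Limousin (y axis) of each measured complement, macrophage and immediate early gene, with 4 Hereford arrays (blue circles) and 4 Holstein-Friesian arrays (orange squares) per gene, ordered by mean difference. C4A, CFB and CFD show no overlap between breeds, and FOS shows 1 Hereford array above the lowest Holstein-Friesian array.

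Antigen presentation genes had a median of -0.45 across dyes, with 6 of 8 members below 0 and none past the test. After median centring the list median was 0.37, above 0 but only 0.011 above the all-probe median there. Of the 8 members, 4 lay above that all-probe median. BOLA, a class I chain, and BOLA-DRA, a class II chain, stood at differences of -1.10 (SD 0.70) and -1.12 (SD 0.96), with array 3 of Holstein-Friesian the highest for both. These chains have near copies that a probe may not separate. In the interferon response list of 9 measured genes, XAF1, an interferon-induced partner of the apoptosis inhibitor XIAP, fell (2.69% of named genes did). XAF1 differed by -1.02, -0.52, -0.87 and -1.07 in the 4 pairs, with a mean of -0.87 (SD 0.25, n = 4 pairs, limma adjusted p = 0.035), although the breeds' ranges overlapped because array 3 was high on both slides. Its same-dye value of -0.57 did not pass (limma adjusted p = 0.0903). Lymphocyte markers had a median of 0.015 over 11 genes, and CD8A and CD8B, the chains of the cytotoxic T cell co-receptor, stood at -0.51 and -0.49 without passing.

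Immediate early genes lay lower in Hereford as a group, with uneven pairs. All 17 measured genes of 27 listed had a mean below 0 (50.8% of all named genes did) and 3 fell (2.69% of named genes did). The median was -0.94 across dyes and -1.14 in the same dye. By pair it was -0.83, -0.95, -0.13 and -1.42, so pair 3 was close to 0. Array medians ran from 0.11 to 0.97 in Hereford and from 1.42 to 1.93 in Holstein-Friesian. After median centring the list median was -0.16, with 12 of 17 members below 0.

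KLF6, a zinc finger transcription factor, was the clearest of them. KLF6 stood at -0.20, 0.054, 1.21 and -0.29 in Hereford and at 1.63, 1.42, 2.30 and 1.38 in Holstein-Friesian. Array 3 of Hereford was high and just under the lowest Holstein-Friesian array. KLF6 fell by 1.49 on the log2 scale (SD 0.33, n = 4 pairs, limma adjusted p = 0.0263), and the same-dye value was -1.39 (limma adjusted p = 0.0377). ZFP36 marks short-lived messenger RNAs for decay. ZFP36 stood at 0.64, 0.44, 0.97 and 1.01 in Hereford and at 1.82, 1.45, 1.55 and 1.95 in Holstein-Friesian. Every array of both breeds lay above Limousin, Hereford by less. The ZFP36 difference was -0.93 (SD 0.25, n = 4 pairs, limma adjusted p = 0.0341). JUND, a member of the AP-1 family, fell as well, at -0.94 (SD 0.32, n = 4 pairs, limma adjusted p = 0.0409), but its same-dye value was -0.36 and did not pass (limma adjusted p = 0.356).

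The largest mean in the list belonged to FOS, the partner of JUN in AP-1, and it did not pass. FOS stood at 0.39, -0.30, 1.98 and -1.09 in Hereford and at 3.75, 3.91, 1.78 and 4.43 in Holstein-Friesian. Holstein-Friesian was far above Limousin on arrays 1, 2 and 4, and on array 3 Hereford was the higher. The FOS difference was -3.36, -4.21, 0.20 and -5.52 in pairs 1 to 4, with a mean of -3.22 (SD 2.45, n = 4 pairs, limma adjusted p = 0.103). ATF3 and MYC, both also transcription factors, had differences of -3.67, -1.62, 0.92 and -1.55 and of -2.78, -2.11, -0.29 and -0.82, with means of -1.48 (SD 1.88) and -1.50 (SD 1.15). In ATF3 and MYC every array of both breeds was above Limousin. JUN and JUNB stood at -0.67 and -1.03 across dyes and at 0.25 and 0.30 in the same dye, so their sign depended on the reading.

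Stress and growth arrest genes split. Of 9 measured, 6 lay below 0 and 1, GADD45B, fell (2.69% of named genes did), with a list median of -0.77. GADD45G stood at -0.35, 1.38, 0.41 and 1.32 in Hereford and at 2.76, 4.02, 2.63 and 2.03 in Holstein-Friesian, without overlap, and its difference of -2.17 (SD 1.04, n = 4 pairs, limma adjusted p = 0.0505) just missed the threshold. DDIT4, an inhibitor of mTORC1, had a difference of -1.39 (SD 0.76, n = 4 pairs, limma adjusted p = 0.0603) across dyes and passed in the same dye at -1.58 (limma adjusted p = 0.0377). GADD45A, of the same family, stood on the other side at 0.56 and did not pass.

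Heat shock genes lay higher in Hereford, with 12 of 16 measured genes above 0 (49.2% of all named genes), 3 that rose (2.11% of named genes) and a median of 0.27 across dyes and 0.34 in the same dye. HSPA8 is the constitutive Hsp70 chaperone. HSPA8 stood at 0.60, 0.23, 0.11 and 0.49 in Hereford and at -0.32, -0.67, -0.88 and -0.39 in Holstein-Friesian. The 4 HSPA8 differences, 0.92, 0.90, 0.99 and 0.88, were close to each other. Its mean was 0.92 (SD 0.048, n = 4 pairs, limma adjusted p = 0.0226), and 0.53 in the same dye. DNAJA1, an Hsp40 partner of Hsp70, had 1.27, 1.48, 1.02 and 1.03 and a mean of 1.20 (SD 0.22, n = 4 pairs, limma adjusted p = 0.0251). HSPH1, the exchange factor that releases its nucleotide, had 1.32, 1.81, 1.59 and 1.00 and a mean of 1.43 (SD 0.35, n = 4 pairs, limma adjusted p = 0.0304). None of these 3 passed in the same dye, where HSPH1 stood at 1.07 and DNAJA1 at 0.54. DNAJA1 also passed in the Limousin dye reading, at 0.33 (limma adjusted p = 0.0397), so part of its difference across dyes cannot be told apart from dye. DNAJB1, the inducible Hsp40, had 1.14 and 1.30 in the 2 readings and did not pass in either. HSPA1A, the inducible Hsp70, stood at 0.46 across dyes and at -0.40 in the same dye.

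Fibrillar collagens stood higher in Hereford by both readings, with COL3A1 past the test in each. The collagen and matrix list had 16 measured genes, 13 above 0 (49.2% of all named genes), with a median of 0.46 across dyes and 0.25 in the same dye. Across dyes COL3A1 and COL6A1 rose (2.11% of named genes did). By the same-dye reading COL3A1, COL1A1 and SPARC rose (0.762% of named genes did). COL1A1 and COL1A2 encode the chains of type I collagen. COL1A1 stood at 1.24, -0.22, -0.60 and -0.012 in Hereford and at -0.14, -0.69, -2.55 and -1.16 in Holstein-Friesian. Array 3 of Holstein-Friesian was the lowest and array 1 of Hereford the highest, and the ranges overlapped. The COL1A1 difference was 1.24 (SD 0.61, n = 4 pairs, limma adjusted p = 0.0542) across dyes, and 2.18 in the same dye (limma adjusted p = 0.0371). COL1A1 also differed between dyes in Limousin, by -0.47 (limma adjusted p = 0.0352).

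COL1A2 did not overlap between breeds and had a difference of 1.69 (SD 0.90, n = 4 pairs, limma adjusted p = 0.0588), just short of the threshold. SPARC, a matrix protein that binds collagen, had 1.10 (SD 0.53, n = 4 pairs, limma adjusted p = 0.0534) across dyes and 1.41 in the same dye (limma adjusted p = 0.0422). COL6A1, a chain of the microfibrillar type VI collagen, had 4 close differences, 0.46, 0.43, 0.46 and 0.51, and passed at 0.46 (SD 0.036, n = 4 pairs, limma adjusted p = 0.0443). Its same-dye value was -0.23 and its Limousin dye reading 0.35 (limma adjusted p = 0.0368), so its direction depended on the reading. The matrix genes LUM, THBS4 and POSTN lay at 0.82, 0.92 and 0.57, and FN1 and FMOD near 0, none past the test. TIMP2, THBS1 and BGN, the members below 0, lay at -0.25, -0.25 and -0.24, also without passing. The fibroblast marker list split, with 5 of 10 measured genes above 0 and 5 below. LUM and DPT lay above 0 beside the 3 collagens it holds, at 0.82 and 0.14. PDGFRA, PI16, DCN, THY1 and MFAP5 lay between -0.74 and -0.068, and none of these 7 passed. The fibroblast marker list, with 10 measured genes, all above background in every reading, had a median of -0.42 to 0.57 on the Hereford and -0.57 to -0.11 on the Holstein-Friesian arrays. Its part in the collagen difference was not tested.

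Medians of the fast-twitch, slow-twitch and glycolysis lists lay above 0 across dyes, and nearer to 0 in the same dye. Single members could lie further from 0 there. All 10 measured fast-twitch genes had a mean above 0 across dyes (49.2% of all named genes did), with a median of 0.51, but the same-dye median was -0.054 and the Limousin dye median 0.25. TNNC2, the calcium sensor of fast fibres, was the clearest case. TNNC2 stood at 0.52, 0.18, 0.72 and 0.49 in Hereford and at -1.10, -0.47, -0.56 and -0.59 in Holstein-Friesian. The breeds did not overlap, and the difference across dyes was 1.16 (SD 0.41, n = 4 pairs, limma adjusted p = 0.04). Its same-dye value was 0.018 (limma adjusted p = 0.928), and Limousin alone read 0.57 higher in Cy5 (limma adjusted p = 0.0377). ATP2A1, the calcium pump of fast fibres, had differences of 1.21, 0.27, 1.24 and 1.39, with pair 2 the lowest, and did not pass. PVALB, the calcium buffer of fast fibres, had the larger value in the same dye, with 1.10 across dyes and 1.82 in the same dye, and passed in neither.

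The myosin heavy chains that define fibre types did not pass in either reading. MYH7, the slow chain, stood at 0.59, 1.45, 1.26 and 1.42 in Hereford and at 2.16, 0.37, 1.24 and 0.45 in Holstein-Friesian. Both breeds lay above Limousin on all arrays, with array 1 of Holstein-Friesian the highest. MYH7 differences were -1.57, 1.08, 0.021 and 0.97 in the 4 pairs, with a mean of 0.12 (SD 1.23). MYH2 and MYH1, the fast chains, had means of 0.090 (SD 0.96) and 0.46 (SD 0.69). In the same dye MYH7, MYH2 and MYH1 stood at -0.78, -0.087 and -0.58, so their sign depended on the reading. Limousin read 0.45, 0.088 and 0.52 between dyes for these genes. The slow-twitch list, 11 measured genes, had medians of -1.21, 1.08, 0.85 and 0.92 by pair, so pair 1 stood opposite to the other 3. Of the 11, MB and no other rose across dyes (2.11% of named genes did). MB, the oxygen store myoglobin, stood at 0.43, 0.38, 0.93 and -0.11 in Hereford and at -0.73, -1.26, -0.71 and -1.39 in Holstein-Friesian, with a difference of 1.43 (SD 0.25, n = 4 pairs, limma adjusted p = 0.0226). Its same-dye value of 0.50 did not pass, and Limousin read 0.47 between dyes. MYL3, the slow light chain, and CSRP3, a Z-disc sensor of stretch, had opposite signs, with 1.24 (SD 0.62) and -1.44 (SD 1.03), and did not pass. LDB3, a Z-disc protein, rose across dyes at 0.85 (SD 0.17, n = 4 pairs, limma adjusted p = 0.0312), with 0.40 in the same dye, which did not pass.

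In glycolysis 10 of 13 measured genes lay above 0 across dyes (49.2% of all named genes), with a median of 0.64, a same-dye median of 0.21 and a Limousin dye median of 0.23. ALDOA, muscle aldolase, was the 1 gene that rose (2.11% of named genes did). ALDOA stood at 0.13, 0.12, 0.16 and 0.80 in Hereford and at -1.39, -0.32, -0.84 and -0.60 in Holstein-Friesian. Its difference was 1.09 (SD 0.49, n = 4 pairs, limma adjusted p = 0.0498), and 0.21 in the same dye (limma adjusted p = 0.35). TPI1, triose phosphate isomerase, changed sign between readings, from 0.93 to -0.23. LDHA, which makes lactate, and PGK1, an ATP-forming step, kept theirs, with 1.23 and 1.32 across dyes and 0.51 and 0.86 in the same dye, and neither passed. PFKFB3, which makes the activator of phosphofructokinase, lay lower in Hereford at -1.40 and -1.20, also without passing. Glycogen genes had a median of 0.31 across dyes and 0.25 in the same dye over 8 genes, none of which passed in limma.

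**Figure D4:**
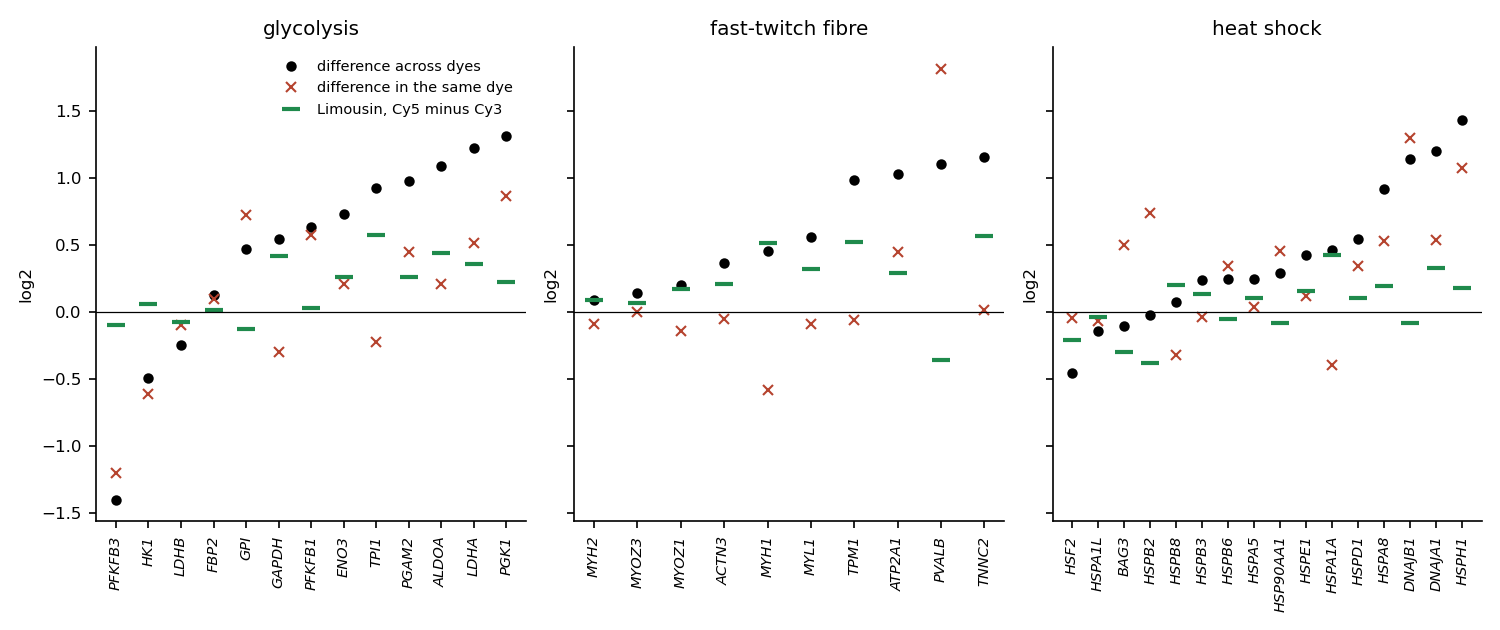
Mean difference across dyes (black), mean difference in the same dye (red crosses) and Limousin Cy5 minus Cy3 (green bars), all in log2 on the y axis, for glycolysis, fast-twitch and heat shock genes. TNNC2 has a difference of 1.16 across dyes and 0.018 in the same dye, while HSPH1 keeps 1.07 of its 1.43.

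Examples of genes whose sign depended on the reading were chosen by rule, from those that passed across dyes with an opposite same-dye mean. Dye and slide both enter the gap between the readings and cannot be told apart here. RRAGA, a Rag GTPase that recruits mTORC1 to the lysosome, had 0.99 across dyes, -0.0055 in the same dye and 0.50 in the Limousin reading. For CNPY3, a chaperone of Toll-like receptors, these were 0.74, -0.36 and 0.55. LOC286807 had 0.85, -0.15 and 0.50, and LIN7A, a PDZ scaffold protein, 0.76, -0.19 and 0.48. A tight spread over pairs does not separate such genes, since CNPY3 had an SD of 0.11 over its 4 pairs. LXN, an inhibitor of carboxypeptidases, and EPHB3, an ephrin receptor, rose across dyes by 1.80 (SD 0.27, limma adjusted p = 0.0218) and 1.53 (SD 0.31, limma adjusted p = 0.0251). Same-dye values were 0.77 and 0.64, without passing, and Limousin read 0.51 and 0.44 between dyes.

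Of genes of fat cells 1 of 14 measured passed across dyes, and of fatty acid and triglyceride synthesis 1 of 12, against 4.8% of all named genes, so these counts say nothing particular of the lists. The adipocyte list had a median of 0.041, and its call was CFD, lower in Hereford and also in the complement list. FABP4, which carries fatty acids in fat cells, varied widely between arrays of a breed. FABP4 stood at 2.97, -1.34, 1.56 and -1.22 in Hereford and at 0.32, -1.29, 1.06 and -2.67 in Holstein-Friesian. Arrays 1 and 3 were high and arrays 2 and 4 low on both slides, arrays of a number sharing a Limousin bull, and the mean difference was 1.14 (SD 1.19, n = 4 pairs, limma adjusted p = 0.187). PLIN1, the coat protein of fat droplets, had differences of 0.78, 0.045, -0.012 and 0.024, with pair 1 far above the rest. SCD, which desaturates fatty acids, stood at 0.89 (SD 0.65), PPARG, the regulator of fat cell formation, at -0.061 (SD 0.16) and DGAT1, the last step of triglyceride synthesis, at 0.085 (SD 0.33). THRSP, a regulator of fat synthesis, had 0.19 (SD 0.030) and none of SCD, PPARG, DGAT1 and THRSP passed. LEP, the hormone leptin, was not well above background on any Holstein-Friesian array. In the list of fatty acid and triglyceride synthesis, with 12 measured genes, ME1, the malic enzyme that supplies NADPH, rose. ME1 stood at 0.00043, 0.37, 0.31 and 0.41 in Hereford and at -0.82, -0.78, -0.59 and -0.63 in Holstein-Friesian, without overlap, with a difference of 0.98 (SD 0.14, n = 4 pairs, limma adjusted p = 0.0251) and a same-dye value of 0.52 that did not pass. These values are of the brighter of 2 ME1 probes, and the other had a smaller difference, 0.50. FABP3, the carrier of muscle fibres, differed by -0.46, 2.83, 2.03 and 1.32, with pair 1 below 0 and the others above, and did not pass. No probe of ADIPOQ, FASN or IGF1 passed the filter.

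Fatty acid oxidation had 16 measured genes, 1 call (4.8% of named genes passed) and a median of -0.033. CPT1B, which carries fatty acids into muscle mitochondria, fell at -0.71 (SD 0.15, n = 4 pairs, limma adjusted p = 0.0341), with -0.76, -0.90, -0.83 and -0.75 in Hereford and -0.19, -0.30, 0.029 and 0.055 in Holstein-Friesian. Its same-dye value of -0.17 did not pass, and Limousin read -0.27 (limma adjusted p = 0.0429). After median centring its difference was 0.16, above 0 but below the all-probe median of 0.36 there. Its sign against 0 depended on the processing, so its direction is not settled. In oxidative phosphorylation 2 of 28 measured genes rose (2.11% of named genes did), both of complex I, NDUFA1 at 0.89 (SD 0.29, n = 4 pairs, limma adjusted p = 0.0401) and NDUFS4 at 0.82 (SD 0.27, n = 4 pairs, limma adjusted p = 0.0422). Their same-dye values were 0.56 and 0.44, neither past the test, and the list median was 0.061. NDUFC1, described above, also belongs to complex I. PDK4, which blocks pyruvate entry into the citrate cycle, was above Limousin on all arrays of both breeds and differed between them by -0.34 (SD 1.11), without passing. MT2A, a metallothionein, was below Limousin on all 8 arrays, with a breed difference of -0.38 (SD 0.68).

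Among regulators of growth and glucose uptake, IGFBP3, which carries insulin-like growth factors, fell in Hereford. IGFBP3 stood at -0.67, -0.86, -0.53 and -1.16 in Hereford and at 0.59, 0.68, 0.14 and 0.095 in Holstein-Friesian. The breeds did not overlap, and the difference was -1.18 (SD 0.36, n = 4 pairs, limma adjusted p = 0.0341). Its same-dye value of -0.84 did not pass (limma adjusted p = 0.0871). SLC2A1, the basal glucose transporter, fell at -0.91 (SD 0.38, n = 4 pairs, limma adjusted p = 0.0494). In the same dye SLC2A1 stood at -1.04 and did not pass (limma adjusted p = 0.0726). SLC2A4, the insulin-responsive transporter, stood at -0.65 (SD 0.41) across dyes without passing. Myogenic factors divided, with MYF6 and FST, an inhibitor of myostatin, at -1.30 and -1.06, and MYOG and MYOD1 at 1.02 and 0.98, and none of the 4 passed. MSTN, myostatin itself, stood at -0.59, -0.28, 0.45 and 0.37 in Hereford and at -0.83, -0.75, -0.91 and -0.23 in Holstein-Friesian, which overlapped, with a mean difference of 0.67 (SD 0.49, n = 4 pairs, limma adjusted p = 0.11). SYT4, a sensor of vesicle fusion, was above Limousin on every array of both breeds, with a difference of 0.77 (SD 0.79). Of 8 measured smooth muscle and pericyte markers, CNN1, a calponin of smooth muscle, was the 1 that rose (2.11% of named genes did). CNN1 stood at 0.93 (SD 0.29, n = 4 pairs, limma adjusted p = 0.0384) and 1.19 in the same dye (limma adjusted p = 0.0473). The list median was -0.078.

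Across the 33 lists, medians ran from -1.29 for complement to 0.64 for glycolysis. After median centring 14 list medians changed sign, and of these only antigen presentation lay over 0.2 from 0 after loess. In the same dye 9 did, among them fast-twitch, slow-twitch and skeletal muscle marker genes, the 3 that lay over 0.2 from 0 across dyes. Endothelium markers, 10 measured, had a median of -0.092, and ESAM, a junction protein, changed sign between readings, from -0.82 to 0.49, with a Limousin dye value of -0.66. Blood cell and nerve markers, with 5 measured genes each, had medians of -0.059 and -0.053. Ribosomal proteins lay slightly below 0, with 19 of 25 genes below (50.8% of all named genes), a median of -0.12 and none past the test, and after median centring their median was 1.01. Genes of the citrate cycle, translation factors, proteolysis, calcium handling, insulin signalling and metal binding had medians between -0.10 and 0.14. In these 6 lists only SLC2A1, an insulin signalling member, passed across dyes in limma (4.8% of named genes did).

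**Figure D5:**
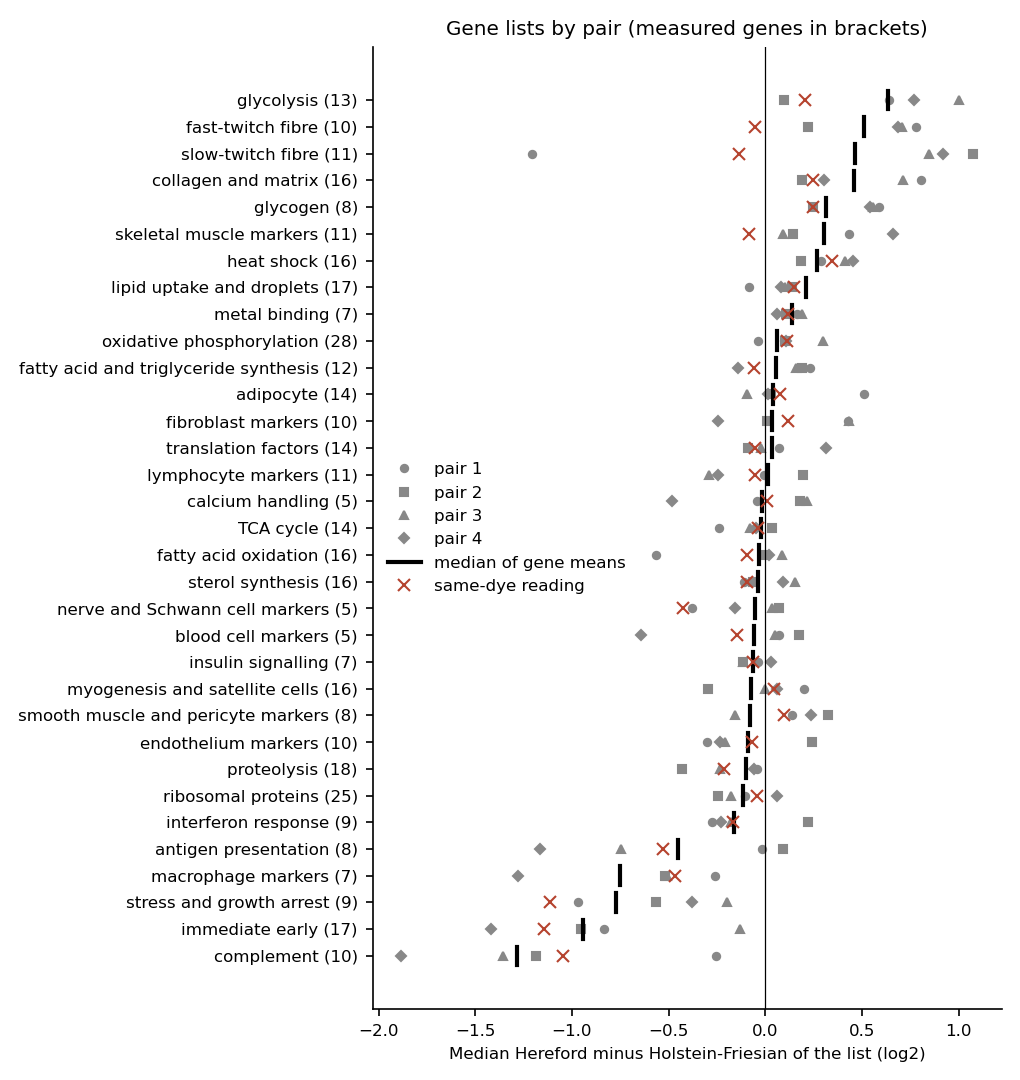
Median difference Hereford minus Holstein-Friesian (x axis, log2) of each of 33 gene lists in pairs 1 to 4 (grey symbols), with the median of gene means (bar) and the same-dye median (red cross). Complement lies lowest in 3 of 4 pairs, and slow-twitch genes are split, with pair 1 at -1.21 and the others above 0.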

How the data were processed

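Per the submitters' processing notes, scans were read by Agilent Feature Extraction, version 10.7.3.1. Brightness and local background of each spot stood as median intensity per the file headers, and processed intensity signals were background-subtracted and dye-normalized there. In the deposited values, log10 ratios had Cy5 above Cy3 and matched the scanner output in 44407 of 44407 spots of each array.

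The tools were limma 3.58.1 and statmod 1.5.0 in R 4.3.3, with the packages jsonlite (2.0.0) and data.table (version 1.17.8). Median intensity was corrected with normexp (offset 50) and loess was run within arrays (span 0.3, control spots given no weight). Single channels were scaled between arrays with Aquantile. Deposited log10 values were changed to log2 for 1 alternative. Control and outlier spots were left out, and the spots of each of the 21475 probes were averaged. A probe was kept where at least 4 of 16 readings were well above background, which 17061 probes met. Symbols came from RefSeq (assembly ARS-UCD2.0) by accession, without its coordinates, since per the file headers the array follows Btau_3.1. Of 8297 probes so named, 7079 were kept, for 6693 genes. The brightest kept probe stood for a gene. Where a gene had several (365 genes), signs differed in 143 and calls were opposite in 0.

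The test was limma's lmFit and eBayes on 4 paired values per probe, two-sided, with Benjamini-Hochberg adjustment over 17061 probes and a call at an adjusted p under 0.05. The source names give the same Limousin animal on both arrays of a number, which makes the pairs. As a check, the deviations of Limousin Cy3 and Cy5 channels from their means correlated at 0.400, 0.862, 0.746 and 0.616 with the same number. With other numbers they correlated at -0.353 to -0.023, which is partly built in, since deviations from a mean cancel over the 4 numbers. Deviations of Hereford and Holstein-Friesian array ratios correlated at 0.415, 0.273, 0.500 and 0.099 with the same number. With other numbers these ran from -0.344 to 0.144, so number 4 did not stand out. The tests were run on simulated data first. The number of arrays limits the precision, and SD values are over pairs.

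Members, lists, tests and naming rule were chosen with earlier results of these data known. Of 589 genes in 33 lists, 585 could be matched and 382 were measured. Named were the 12 genes in each direction ranked by the smaller of both readings among genes that passed across dyes and kept their sign in all pairs of both readings, 4 genes that passed with an opposite same-dye mean, the first 3 of each list by p, and a set of fibre, fat and stimulus genes. Other list members were named to fill out their list, after their values were seen. The result of 1 gene that met the rule is not reported here and is left out of counts over the genes so named. Alternatives were dropping the pairing, a random block for the Limousin bull, single channels, the processed signals, no background subtraction, median centring, the deposited ratios, other filters, and leaving out each pair. All value columns were mapped (0 left), and plots were drawn with matplotlib 3.10.9.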

Additional observations from a re-analysis of the deposited data

Results flagged for a closer look

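In 6 of the 23 reported genes that met the naming rule for both readings, the breeds lay on opposite sides of Limousin on every array. Passing the test across dyes was part of that rule. EXTL1 (1.13 log2 in Hereford, -0.46 in Holstein-Friesian, difference 1.60) was above Limousin in Hereford. C4A (-1.23, 1.14, difference -2.36), GADD45B (-0.45, 1.63, -2.08), PCOLCE2 (-0.73, 1.07, -1.80), CTSF (-0.35, 1.14, -1.50) and PTGS1 (-0.50, 1.13, -1.63) were below it. Only genes named by that rule were looked at for this. Others described above that passed across dyes, such as HSPA8, TNNC2, ALDOA, IGFBP3 and ME1, also lay on opposite sides on every array.

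A single pair stood far from the other 3 in 3 of 134 named genes. In ATP2A1 it was pair 2 (0.27, with the others up to 1.39), in STAC3, a calcium channel adaptor of muscle, pair 2 (-1.67, with the others up to -0.42), and in PLIN1 pair 1 (0.78, with the others down to -0.012). The same held for 6 of 34 medians looked at. Pair 1 was low for slow-twitch genes (-1.21) and fatty acid oxidation (-0.56). Pair 2 was low for fast-twitch (0.22) and glycogen genes (0.25) and high for endothelium markers (0.24), and pair 4 was low for blood cell markers (-0.64). Chance gives about 1 such value in 20 groups looked at. That is a larger share than the 3 of 134 genes and a smaller one than the 6 of 34 medians. Some lists share genes, so the medians are not independent groups, and no conclusion is drawn from either share.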

How the results depend on the processing

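The count of 701 probes across dyes became 458 with no replicate block (321 of them the same probes, 29 of 49 named calls kept), 1714 when the bull was a random block (612 the same), 305 in the same dye, 1299 from the scanner's processed signals, 1486 from deposited ratios and 4043 with median centring. Leaving out 1 pair gave 0 to 281 calls across dyes, and 0 without pairs 2, 3 or 4 in limma (3318, 3433 and 3487 at an unadjusted p under 0.05). In the same dye it gave 0 to 422 (2681, 2738 and 2957 unadjusted without pairs 2, 3 and 4), and in the Limousin dye reading 0 to 5713 (2320, 2477 and 3081 unadjusted). Single channels directly (533), no background subtraction (937), no filter (549) and the strictest filter (851) stayed within 1.5 times of the count. Of calls, 63.3% were higher with the deposited ratios and 94.5% with median centring, where the median of all probes was 0.36 log2.

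Among 49 named genes that passed, 21 kept their call in the same dye, 23 lost it and 5 changed sign: RRAGA (-0.0055), LOC286807 (-0.15), LIN7A (-0.19), CNPY3 (-0.36) and COL6A1 (-0.23). With median centring 35 kept it and CPT1B changed sign, at 0.16 against an all-probe median of 0.36. In each of these 6 cases the cause was not tested. Other settings kept 37 to 48 calls apart from leaving out pairs and dropping the pairing, and no other setting reversed a named call. Pair 1 removed left 23 of 49, and each other pair removed left 0. A dim probe is limited by background: 12961 of 17061 kept probes were above it in every reading.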

Other observations

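Further genes passed in limma in both readings with the same sign in all 4 pairs. Those named here were chosen after their values were seen. CCL21, a chemokine that guides lymphocytes and dendritic cells, had a difference of -1.66 across dyes and -1.46 in the same dye, and CCL24, a chemokine of eosinophils, -1.62 and -1.31. MASP1, a protease of the lectin pathway of complement that the complement list did not hold, had -1.25 (SD 0.055) and -1.02. PTI, a trypsin inhibitor, CPA3, a carboxypeptidase of mast cell granules, and GATA2, a transcription factor of blood progenitors and mast cells, stood at -1.58, -0.65 and -0.71 across dyes. CH25H, which makes an oxysterol that acts on immune cells, had -1.14.

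TNXB, a tenascin of loose connective tissue, EFEMP1, a fibulin, and ISLR, a gene of stromal cells, were lower in Hereford, at -1.36, -1.40 and -1.35 across dyes and at -1.51, -1.38 and -1.01 in the same dye. The chaperone partners CHORDC1 and DNAJA4, which were in no list, were higher in Hereford at 1.07 and 0.71 across dyes and at 0.82 and 0.90 in the same dye. MID1IP1, an activator of acetyl-CoA carboxylase, and MDM2, the ubiquitin ligase of p53, had much larger values in the same dye, with -0.84 and -1.99 for MID1IP1 and 0.75 and 1.97 for MDM2.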
